A study of Mus musculus with 6 samples.

Results

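The genes described here are 48 interferon-stimulated genes, their STAT and IRF transcription factors and the interferon receptors, taken by gene name from a table of 57180 mouse genes. Each name matched 1 line of the table. RNA was sequenced from primary hepatocytes of male mice in 6 libraries, 3 labelled LOXP and 3 labelled KO, and all 6 cultures had received palmitate at 0.1 mM for 24 hours. LOXP stands for hepatocytes of mice with a floxed STING gene, and KO for hepatocytes of STINGLKO mice, in which the floxed gene is combined with Cre driven by the albumin promoter, active in hepatocytes. STING is the adaptor that carries the signal of cytosolic DNA from cGAS to the interferon response. The labels give neither strain nor age. The paper states a C57BL/6 background for all of its mice and gives their age only for the study as a whole. The labels also do not say whether the 3 libraries of a group came from separate mice, so p-values measure the spread between these libraries. No library without palmitate and none with Cre alone was analysed here, so an effect of Cre and an effect of the deletion cannot be told apart.

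Interferons bind receptors at the cell surface, and the receptors' JAK kinases phosphorylate STAT factors such as STAT2. STAT2 joins IRF9 in a complex that binds the interferon-stimulated response element, ISRE, in the promoters of the target genes. The products of the target genes bind viral RNA, stop translation, degrade RNA or attach the ubiquitin-like protein ISG15 to other proteins, and several of them, such as STAT2, IRF7, IRF9 and USP18, feed back on the pathway itself. Hepatocytes carry these receptors and respond to interferon, although interferon is mostly made by other cells.

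Counted reads ran from 14726983 to 18536985 per library. Of the 48 genes, 44 had enough reads to be tested, among 14151 tested genes in all. Levels are given as normalized counts scaled to library size (CPM), and per-length levels as FPKM, which allow genes to be compared with each other. Differences are log2 fold changes of the libraries labelled KO against LOXP with their standard error (SE). P-values are from edgeR's quasi-likelihood test, adjusted over all tested genes, and a gene was called at an adjusted p under 0.05.

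Sting1, the targeted gene, was not called. Its counts were 19, 16 and 23 in the LOXP libraries and 24, 23 and 15 in those labelled KO, a log2 fold change of -0.08 (SE 0.30, edgeR adjusted p = 0.883). The mean level was 1.28 ± 0.209 CPM (SD, n = 3) in LOXP and 1.22 ± 0.328 CPM in the libraries labelled KO, so the count of this gene does not separate the labels. Whether the counted reads fall in the deleted exons cannot be seen in a table of whole genes, so every direction below refers to the label.

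Most of the antiviral genes that could be tested were lower in the libraries labelled KO. In 10 of the 11 roles at least 1 gene was called lower, from 1 of 4 in the OAS family to all 5 of the PARP family. Of the 44 genes tested, 26 were called lower, or 59.1%, against 11.6% of all tested genes. None was called higher, against 11.5% of all tested genes. At an unadjusted p under 0.05, 0 of the 44 were higher in the main edgeR fit, against 2534 of 14151 tested genes. In DESeq2, and in some alternative fits with limma and edgeR, 1 was. The log2 fold change was negative for 42 of the 44, with a median of -0.52, and ran from -1.70 to 0.38, while the median over all tested genes was -0.002. By the study's own criteria, which also ask for a log2 fold change beyond 1 and for an average FPKM over 1 in either group, 7 genes were lower, namely Isg15, Usp18, Ifit1, Parp14, Rsad2, Xaf1 and Rtp4. These 7 are 15.9% of those tested, against 1.49% of all tested genes, and 0 of the 44 were higher, against 0.558%. In 36 of the 44, or 81.8%, every library labelled KO was below every LOXP library, against 20.3% of all tested genes. Trim25 alone had its groups apart the other way, against 20.4%. For these 37 genes the exact two-sided permutation test over libraries gave p = 0.1, the smallest that 3 libraries against 3 allow. In bulk RNA, fewer cells of a type and less RNA per cell cannot be told apart.

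**Figure D1:**
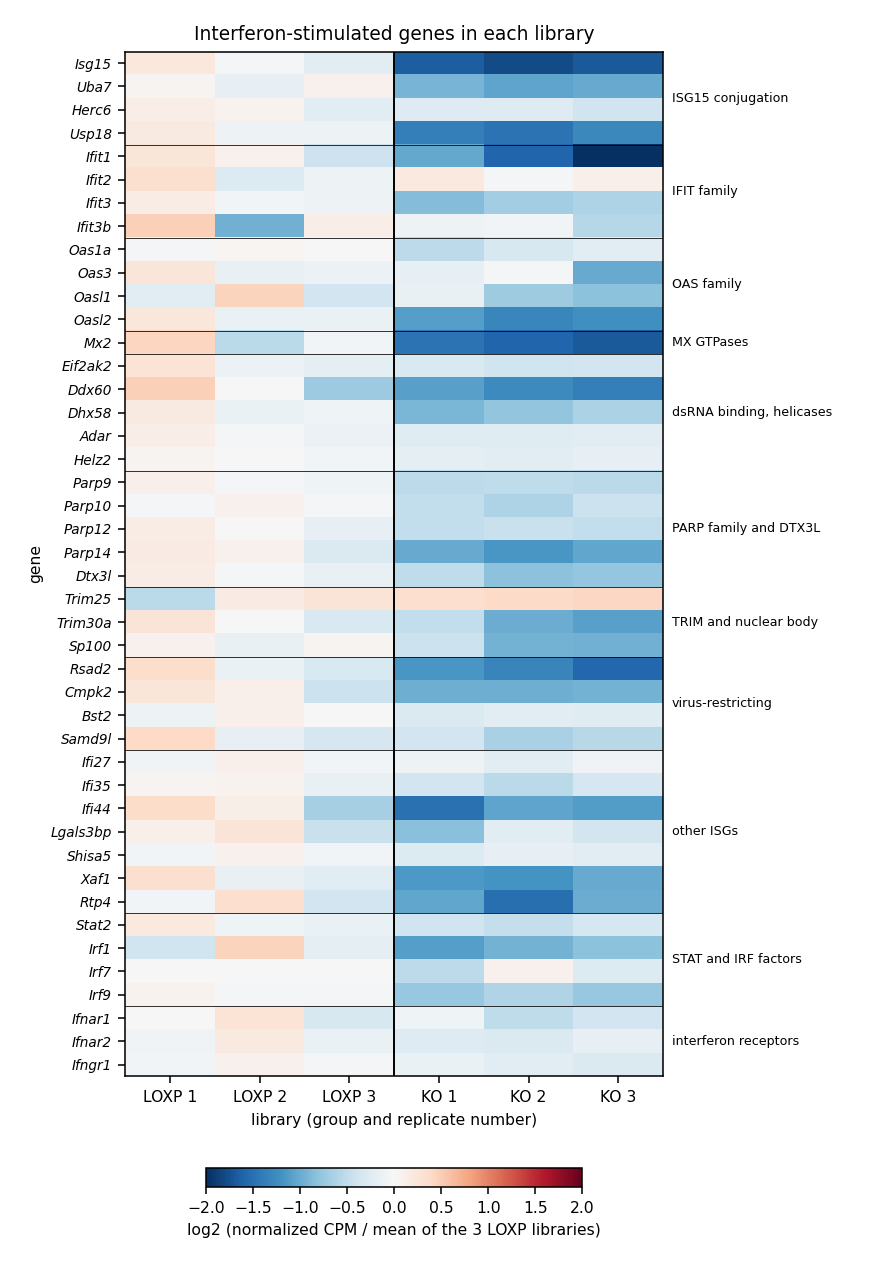
Each row is 1 of the 44 tested genes, grouped by role, and each column 1 library. The colour is the log2 ratio of the normalized CPM to the mean of the 3 LOXP libraries, blue below it and red above, and values under the end of the scale (Ifit1 in KO 3) are drawn in the darkest blue. The 3 columns labelled KO are blue for nearly all rows, Ifit2 and Trim25 are the exceptions over the group, and the LOXP 1 column is mostly red.

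The LOXP libraries were not alike for these genes. LOXP 1 was the highest of the 6 libraries for 28 of the 44 genes (63.6%, against 18.7% of all tested genes), LOXP 2 for 13 and LOXP 3 for 1. The median log2 ratio of the 44 genes to their LOXP mean was 0.14 in LOXP 1, 0.01 in LOXP 2 and -0.13 in LOXP 3, and -0.50, -0.61 and -0.60 in KO 1, KO 2 and KO 3. All 3 medians labelled KO thus lay well below the LOXP ones. The median coefficient of variation was 13.9% in LOXP and 7.04% in the libraries labelled KO, where all tested genes had 9.51% and 7.81%. Without LOXP 1, 21 of the 44 genes were called lower, against 1515 of 14421 tested genes. Without LOXP 3, in which they were lowest among the LOXP libraries, 30 were, against 1208 of 14424.

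Among the 44 genes tested, Isg15 had the most negative log2 fold change. ISG15 is attached to proteins by a chain of enzymes, in which UBA7 activates it and HERC6 is the ligase of mice, and USP18 takes it off again and also blocks the receptor IFNAR2. Isg15 was at 38.9, 32.9 and 28.6 CPM in LOXP and at 10.7, 9.71 and 10.5 CPM in the libraries labelled KO. The 3 libraries labelled KO thus held 30.8% of the LOXP mean, and the log2 fold change was -1.70 (SE 0.13, edgeR adjusted p = 8.72e-05). Usp18 followed the same pattern, with 89.6, 73.9 and 73.6 CPM in LOXP and 30.7, 28.3 and 32.2 CPM in KO, a log2 fold change of -1.38 (SE 0.10, adjusted p = 7.79e-05). Per length Isg15 stood higher than Usp18, with an FPKM of 47.0 ± 7.60 (SD, n = 3) in LOXP against 22.6 ± 2.85 for Usp18. Uba7 was at 9.85, 8.46 and 10.1 CPM in LOXP and at 4.97, 4.53 and 4.72 CPM in KO, 50.1% of the LOXP mean, with a log2 fold change of -1.0 (SE 0.14, adjusted p = 0.00147). The ligase gene Herc6 was at 20.5, 19.7 and 15.9 CPM against 15.6, 15.7 and 14.2 CPM. Its groups stood just apart, but with a log2 fold change of -0.30 (SE 0.12) it was not called (adjusted p = 0.0983), except without LOXP 3 (0.0348). Isg15, Usp18 and Uba7 were called in every one of 13 alternative analyses.

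Within the IFIT family, of which several proteins bind viral RNA with a foreign 5′ end, 2 of 4 genes were called. Ifit1 was at 7.70, 6.85 and 4.87 CPM in LOXP and at 3.19, 2.16 and 0.991 CPM in KO, a log2 fold change of -1.62 (SE 0.36, edgeR adjusted p = 0.0136). The libraries labelled KO differed among themselves more for Ifit1 than for Isg15, but all were below LOXP. Ifit3 was at 4.73, 4.13 and 4.02 CPM against 2.36, 2.64 and 2.80 CPM, a log2 fold change of -0.72 (SE 0.18, adjusted p = 0.0202). It was not called without KO 1 (0.0684), KO 2 (0.0671) or LOXP 1 (0.0559), nor by DESeq2 on all 6 libraries (0.0533). Ifit2 was at 9.78, 6.5 and 7.31 CPM in LOXP and at 9.05, 7.72 and 8.46 CPM in KO. Its groups overlapped fully, with a log2 fold change of 0.09 (SE 0.17, adjusted p = 0.745). Ifit3b was read by few counts, 21, 7 and 16 in LOXP and 14, 17 and 11 in KO, and its groups overlapped too (log2 fold change -0.24, SE 0.40, adjusted p = 0.716). Ifit3 and Ifit3b are near copies that can share reads, so the split between them is uncertain. All 4 genes lie in 1 cluster, chr19:34528094-34627409 (GRCm39). The difference in response between neighbours was not tested.

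**Figure D2:**
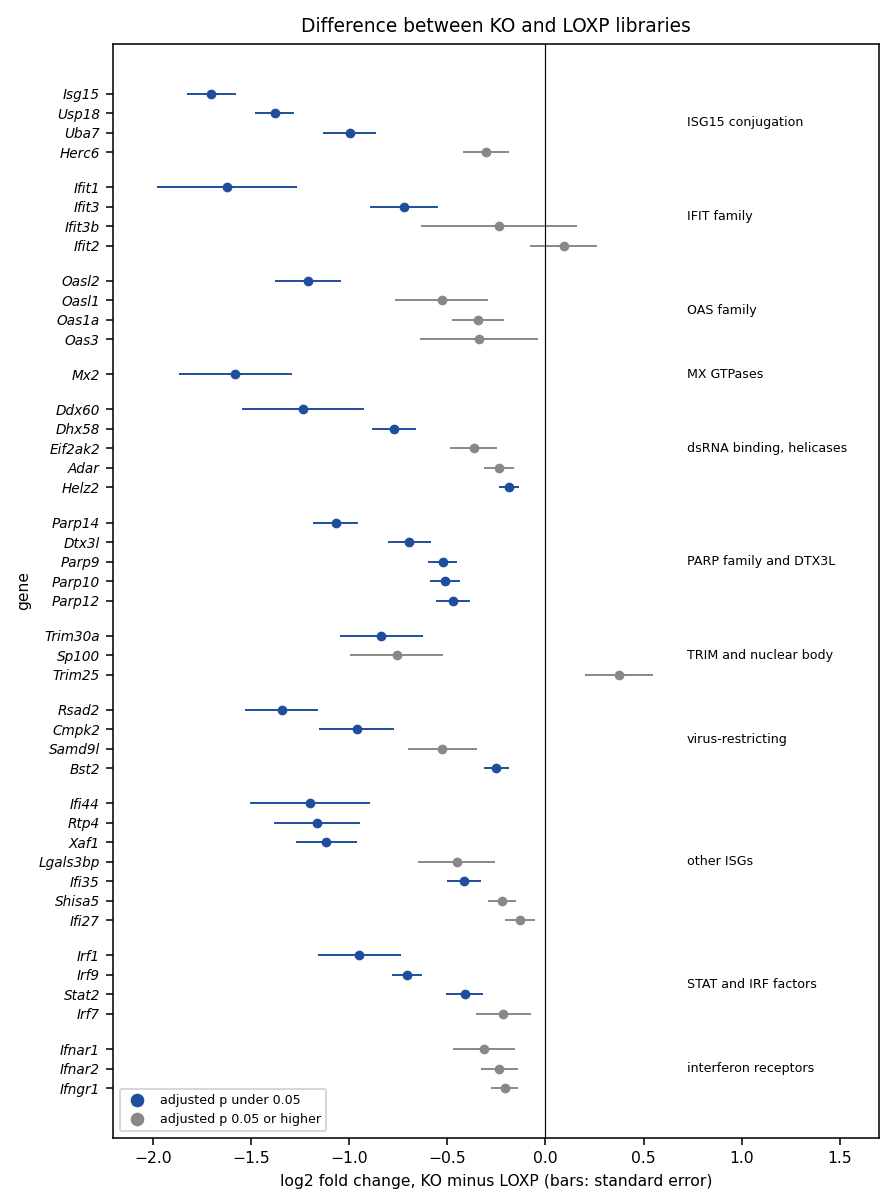
Points are the log2 fold change of the libraries labelled KO against LOXP for the 44 tested genes, ordered by size within each role, and bars are standard errors. Blue marks the 26 genes with an adjusted p under 0.05, all to the left of 0, and only Ifit2 (0.09) and Trim25 (0.38) lie to the right of it.

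The core of the ISRE, GAAANNGAA, was searched on both strands in the window from 250 bases before to 50 after the annotated start of each gene, in RefSeq sequence of GRCm38.p6. This build is older than that of the table, so its coordinates are not those of the table. Sequence was matched for 37 of the 48 genes. The called genes Usp18, Mx2, Dhx58, Parp9, Parp10, Parp14 and Rtp4 had no matched sequence, so they were not searched. The core stood in 17 of them (45.9%), against 9.76% of 27025 genes with such a sequence and 8.48% of the 9794 that were tested. The 6 called genes with a core upstream of the start and the smallest adjusted p are shown, from 250 bases before the start to the base before it, 5′ to 3′ on the strand of the gene, with each core in capitals (as its reverse complement where it lies on the other strand, and overlapping cores run together).
Isg15: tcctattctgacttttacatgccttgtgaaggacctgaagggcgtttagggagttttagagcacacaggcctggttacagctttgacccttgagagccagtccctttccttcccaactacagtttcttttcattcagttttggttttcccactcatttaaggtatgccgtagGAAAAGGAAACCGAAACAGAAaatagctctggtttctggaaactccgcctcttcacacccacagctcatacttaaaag
Rsad2: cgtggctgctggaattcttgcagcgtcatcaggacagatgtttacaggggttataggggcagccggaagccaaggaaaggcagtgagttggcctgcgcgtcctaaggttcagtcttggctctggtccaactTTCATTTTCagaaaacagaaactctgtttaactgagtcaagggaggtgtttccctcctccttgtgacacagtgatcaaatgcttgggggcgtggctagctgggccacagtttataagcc
Ifit1: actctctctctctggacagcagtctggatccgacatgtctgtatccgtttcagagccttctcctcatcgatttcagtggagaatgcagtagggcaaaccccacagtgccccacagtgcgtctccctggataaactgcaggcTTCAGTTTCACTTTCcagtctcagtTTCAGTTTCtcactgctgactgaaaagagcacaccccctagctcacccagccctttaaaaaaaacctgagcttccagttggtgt
Stat2: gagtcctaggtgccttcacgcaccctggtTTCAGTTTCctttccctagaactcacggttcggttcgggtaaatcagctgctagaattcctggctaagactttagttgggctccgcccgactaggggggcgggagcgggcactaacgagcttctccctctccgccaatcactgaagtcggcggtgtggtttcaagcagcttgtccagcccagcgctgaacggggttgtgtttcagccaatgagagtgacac
Ifit3: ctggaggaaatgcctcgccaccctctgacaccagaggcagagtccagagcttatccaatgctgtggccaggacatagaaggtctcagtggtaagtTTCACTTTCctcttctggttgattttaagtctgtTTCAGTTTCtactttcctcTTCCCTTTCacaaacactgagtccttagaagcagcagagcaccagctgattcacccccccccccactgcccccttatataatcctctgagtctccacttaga
Trim30a: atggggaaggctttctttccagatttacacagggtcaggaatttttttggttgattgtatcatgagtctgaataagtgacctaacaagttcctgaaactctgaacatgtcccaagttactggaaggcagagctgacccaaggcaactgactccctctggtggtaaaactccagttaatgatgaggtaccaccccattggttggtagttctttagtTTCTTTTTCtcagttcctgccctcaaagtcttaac

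In the coordinates of GRCm38.p6, Isg15 (chr4:156200819-156201068, minus strand) had 3 overlapping cores that begin 78, 72 and 66 bases before the start. Ifit1 (chr19:34640639-34640888, plus strand) also had 3, at 109, 103 and 84 bases before it, and Ifit3 (chr19:34583279-34583528, plus strand) 3 at 155, 121 and 102. Rsad2 (chr12:26456453-26456702, minus strand) had 1 at 119, Stat2 (chr10:128270248-128270497, plus strand) 1 at 221 and Trim30a (chr7:104465194-104465443, minus strand, for 1 of its starts) 1 at 35 bases before the start. Among the genes with a matched sequence, the core stood in 9 of the 19 called lower and in 8 of the 17 tested but not called. Ifit3b, which was not called, had 3 cores as Ifit3 did. A second element, GAS (TTCNNNGAA), to which STAT dimers bind, stood in 10 of the 37 (27.0%, against 9.55% of all genes), in 3 of the 19 called and in 7 of the 17 not called. The 2 motifs can share bases. A match is a run of letters and not a measured binding site.

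**Figure D3:**
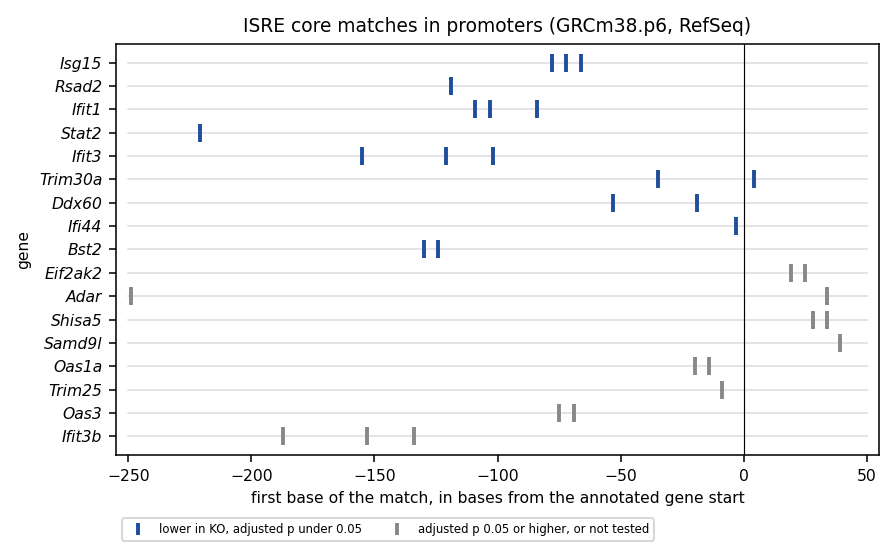
Ticks are matches to the ISRE core on either strand, by the distance in bases of their first base from the annotated gene start, for the 17 genes that have any, ordered by adjusted p from the top. Blue genes were called lower and grey ones were not, and matches of both kinds lie on both sides of the start.

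The OAS proteins sense double-stranded RNA and make the 2′-5′ oligoadenylates that activate RNase L, and the OASL proteins are their relatives. Oasl2 was at 8.77, 6.85 and 6.85 CPM in LOXP and at 3.51, 3.02 and 3.21 CPM in KO, a log2 fold change of -1.21 (SE 0.17, edgeR adjusted p = 0.00162), and it was the only one of 4 tested OAS genes to be called. Oas1a was at 7.70, 8.04 and 7.84 CPM against 5.48, 6.31 and 6.77 CPM. All 3 of its libraries labelled KO were below LOXP, but the log2 fold change of -0.34 (SE 0.13) was not called (adjusted p = 0.103), and its close copies in the mouse genome can take some of its reads. Oasl1, the neighbour of Oasl2 at chr5:115034997-115075974, was at 57.8 ± 18.5 CPM (SD, n = 3) in LOXP and 40.1 ± 10.6 CPM in KO, with overlapping groups (log2 fold change -0.53, SE 0.24, adjusted p = 0.149). Oas3 gave -0.34 (SE 0.30, adjusted p = 0.471). Oas2 had too few counts to be tested, with 20, 2 and 13 in LOXP and 7, 7 and 3 in KO.

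The MX proteins are GTPases that trap viral nucleocapsids. Mx2 was at 4.80, 2.45 and 3.42 CPM in LOXP and at 1.28, 1.19 and 1.11 CPM in the libraries labelled KO. The groups did not overlap and the log2 fold change was -1.58 (SE 0.29, edgeR adjusted p = 0.00594). Its neighbour Mx1 had 5, 6 and 2 counts in LOXP and 0 in each library labelled KO. It did not pass the filter on low counts, so it has no test. A count of 0 allows up to 3 counts over the group for counting error, and the pooled LOXP level of Mx1 was 4.91-fold above that limit. The counting error of its 13 LOXP counts is not part of this ratio, so the ratio is no lower bound on the difference.

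Among the proteins that bind double-stranded RNA, Dhx58 (LGP2), a regulator of the RIG-I sensors, was at 42.7, 34.4 and 35.6 CPM in LOXP and at 19.95, 21.8 and 24.3 CPM in KO, a log2 fold change of -0.77 (SE 0.11, edgeR adjusted p = 0.00202). Ddx60, a helicase, was at 5.43, 3.92 and 2.37 CPM against 1.85, 1.62 and 1.52 CPM. The LOXP libraries of Ddx60 spread over a wide range, and its log2 fold change of -1.23 (SE 0.31, adjusted p = 0.0229) was not called without KO 1 (0.0543), KO 2 (0.0767), KO 3 (0.0735) or LOXP 1 (0.0636), nor by limma on log2(FPKM + 1) (0.0699) or log2(FPKM + 0.1) (0.0535). Helz2, a helicase, had the smallest difference of any called gene, -0.19 (SE 0.05, adjusted p = 0.0316), and was not called when any library except LOXP 3 was left out, with an adjusted p up to 0.128, nor in 3 other alternatives (0.0595 to 0.124). Eif2ak2, the kinase PKR that stops translation, and Adar, which edits double-stranded RNA, had non-overlapping groups but were not called, with log2 fold changes of -0.37 (adjusted p = 0.0575) and -0.23 (adjusted p = 0.0586). Eif2ak2 was called without LOXP 3 (0.0391), with the replicate number as a block in the fit (replicate block, 0.0387) and by DESeq2 (0.0206), and Adar without LOXP 3 (0.0400) and with upper-quartile factors (0.0493). In all, 3 of these 5 genes were called.

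The PARP family was the most uniform of the groups, since all 5 of its genes were called lower and stayed so in every alternative. PARP9, PARP10, PARP12 and PARP14 are ADP-ribosyltransferases or their relatives induced by interferon, and DTX3L is the ubiquitin ligase that pairs with PARP9. Parp14 was at 144.9, 138.4 and 106.5 CPM in LOXP and at 64.8, 58.2 and 62.9 CPM in KO, a log2 fold change of -1.07 (SE 0.11, edgeR adjusted p = 0.000511). Parp9 was at 58.9, 53.8 and 51.2 CPM against 38.0, 38.4 and 37.7 CPM, a log2 fold change of -0.52 (SE 0.07, adjusted p = 0.0018). The 3 values labelled KO of Parp9 were nearly equal. Dtx3l gave -0.69 (SE 0.11), Parp10 -0.51 (SE 0.08) and Parp12 -0.47 (SE 0.09), with adjusted p from 0.00246 to 0.00625. Parp14, Dtx3l and Parp9 lie together at chr16:35653244-35792975. Dtx3l and Parp9 overlap by 682 bases and Parp10 overlaps the abundant gene Plec by 1401 bases, so some of their reads may not be theirs, and whether strand was used in the counting is not given in the sources used here.

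Rsad2, which encodes viperin, had the most negative log2 fold change of the 4 genes grouped here as virus-restricting enzymes and membrane proteins. Viperin makes a chain-terminating nucleotide from CTP, and Cmpk2, its neighbour at chr12:26492745-26529836, encodes a nucleotide kinase of mitochondria. Rsad2 was at 31.2, 22.2 and 19.6 CPM in LOXP and at 10.9, 9.71 and 8.22 CPM in KO, a log2 fold change of -1.34 (SE 0.19, edgeR adjusted p = 0.00165). Cmpk2 was at 9.47, 8.67 and 5.99 CPM against 4.08, 4.10 and 4.20 CPM, a log2 fold change of -0.96 (SE 0.19, adjusted p = 0.00857). For both neighbours the highest library labelled KO was below the lowest LOXP library. Bst2, the tetherin that holds budding virus at the membrane, was the most abundant of all 48 genes per length, with an FPKM of 194.7 ± 10.8 (SD, n = 3) in LOXP and 168.0 ± 4.61 in KO. Its log2 fold change of -0.25 (SE 0.06, adjusted p = 0.0242) was lost when any 1 library except LOXP 1 was left out, with an adjusted p up to 0.0929. Samd9l gave -0.53 (SE 0.18, adjusted p = 0.0631) and was called without LOXP 3 (0.0327), with the replicate block (0.0268) and by DESeq2 (0.00701).

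The TRIM genes and the nuclear body gene Sp100 gave the least uniform picture. Trim30a, a mouse ring-finger gene, was at 9.53, 8.04 and 6.45 CPM in LOXP and at 5.67, 4.05 and 3.79 CPM in KO, a log2 fold change of -0.83 (SE 0.21, edgeR adjusted p = 0.0228). It was not called without KO 2 (0.0838), KO 3 (0.0774) or LOXP 1 (0.0662), and it has close copies in the genome. Sp100 was at 2.65, 2.24 and 2.57 CPM against 1.85, 1.30 and 1.28 CPM, a log2 fold change of -0.76 (SE 0.24) that narrowly missed the test (adjusted p = 0.0517) and passed it without KO 1 (0.0486) and with at least 10 counts in every library (0.0359). Trim25, the ligase that acts on RIG-I, was at 114.9 CPM in LOXP 1, well below 185.3 and 198.1 CPM in the other LOXP libraries, and at 208.9, 216.8 and 220.4 CPM in KO. It was the only gene with all libraries labelled KO above LOXP, and its log2 fold change of 0.38 (SE 0.17, adjusted p = 0.156) went to 0.17 without LOXP 1.

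Xaf1 and Rtp4 had the smallest adjusted p of the remaining interferon-stimulated genes. Xaf1, a factor that promotes cell death, was at 24.6, 17.9 and 16.8 CPM in LOXP and at 8.92, 8.63 and 9.80 CPM in KO, a log2 fold change of -1.12 (SE 0.16, edgeR adjusted p = 0.00176). Rtp4, an inhibitor of virus replication, was at 10.1, 13.2 and 8.03 CPM against 5.10, 3.67 and 5.25 CPM, a log2 fold change of -1.16 (SE 0.22, adjusted p = 0.00693). Neither gene had overlapping groups, but the span of Rtp4 shares 525 bases with Masp1, which has more counts. It also shares 39791 bases with the gene model Gm45338, which held 156 counts against 709 for Rtp4. Ifi44 gave -1.20 (SE 0.31, adjusted p = 0.0242) at a low level and was not called when any library except LOXP 3 was left out (up to 0.0791) nor by limma on log2(FPKM + 1) (0.0521), and Ifi35 gave -0.41 (SE 0.09, adjusted p = 0.0113). Lgals3bp (-0.45, adjusted p = 0.133), Shisa5 (-0.22, adjusted p = 0.0591) and Ifi27 (-0.13, adjusted p = 0.266) were not called, though Lgals3bp was without LOXP 3 (0.0368) and Shisa5 with upper-quartile factors (0.0482). Ifi27l2a was not tested, with 8, 6 and 12 counts in LOXP and 6, 11 and 7 in KO. Epsti1 was not tested either, and all of its 21 counts came from LOXP 1.

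Of the 4 STAT and IRF factor genes, 3 were called lower (75%, against 11.6% of all tested genes), and Irf7 was not. Irf9, a DNA-binding part of the complex with STAT2, was at 62.2, 57.1 and 57.5 CPM in LOXP and at 35.0, 38.8 and 34.7 CPM in KO, a log2 fold change of -0.70 (SE 0.08, edgeR adjusted p = 0.000512). Stat2 was at 115.5, 95.5 and 92.4 CPM against 76.9, 72.4 and 78.9 CPM, a log2 fold change of -0.41 (SE 0.09, adjusted p = 0.0153), and was not called without KO 2 (0.0631). Irf9 stood at 61.4% of the LOXP mean and Stat2 at 75.2%, and neither had overlapping groups. Irf1, a factor that interferon induces, was at 13.3, 23.9 and 15.4 CPM in LOXP and at 8.16, 9.07 and 9.91 CPM in KO. Its LOXP libraries varied widely, and the log2 fold change of -0.95 (SE 0.21, adjusted p = 0.0146) was not called without KO 1 (0.0539). Irf7, the factor that amplifies interferon production, was at 38.9, 39.5 and 39.0 CPM in LOXP, nearly the same in all 3 libraries, and at 27.2, 41.6 and 32.3 CPM in KO. KO 2 lay above every LOXP library, so the groups overlapped (log2 fold change -0.21, SE 0.14, adjusted p = 0.311), and without KO 2 the fold change was -0.40 (0.0382). The span of Irf9 shares 123 bases with Rnf31 (3553 counts against 4538 for Irf9), and that of Irf7 shares 45 bases with Phrf1 (3485 against 3525).

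None of the 3 receptor genes was called. Ifnar1, a chain of the type I interferon receptor, was at 68.8, 83.8 and 55.7 CPM in LOXP and at 65.6, 48.9 and 53.0 CPM in KO, a log2 fold change of -0.31 (SE 0.16, edgeR adjusted p = 0.191). Ifnar2, its partner chain and neighbour at chr16:91169671-91304329, was at 38.2, 45.4 and 36.3 CPM against 33.6, 32.8 and 35.6 CPM, a log2 fold change of -0.23 (SE 0.10, adjusted p = 0.115). Ifngr1, the ligand-binding chain of the type II interferon receptor, was at 130.4, 144.5 and 131.5 CPM against 124.2, 117.3 and 110.8 CPM, a log2 fold change of -0.21 (SE 0.07, adjusted p = 0.0635). Ifnar1 overlapped between the groups and the other two did not. The median log2 fold change was -0.23 for the 3 receptor genes and -0.53 for the 37 effector genes tested, a difference that was not tested, and Ifi27, Helz2 and Ifit2 lay nearer to 0 than any of the 3 receptor genes. Most of the span of Ifnar2 is shared with another gene model, Gm21970, which held 2605 counts against its 3550.

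**Figure D4:**
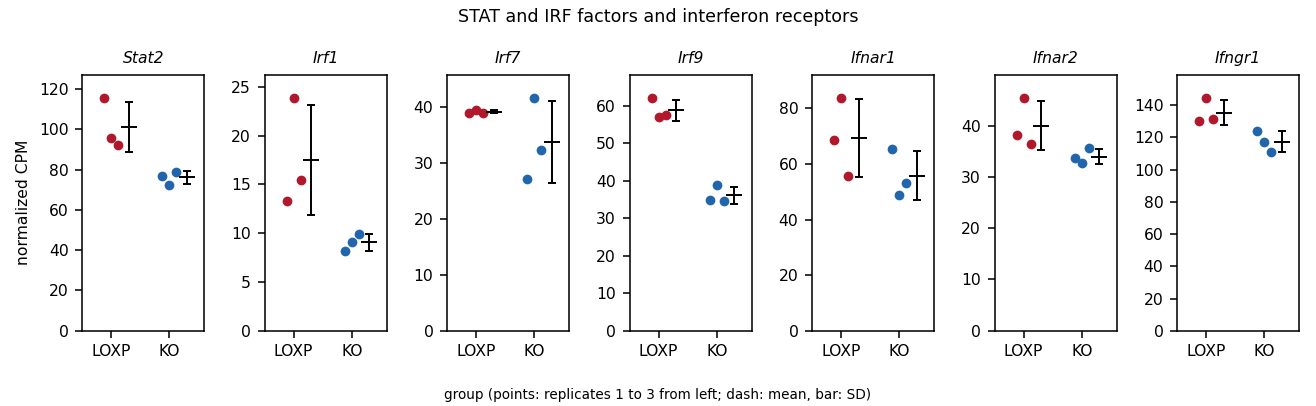
Each panel shows 1 gene, with the normalized CPM of the 3 LOXP and the 3 KO libraries as points (replicates 1 to 3 from left) and the mean ± SD beside them, on an axis that starts at 0. Irf9, Stat2 and Irf1 have separate groups, KO 2 is the highest library for Irf7, and the receptor genes lie close together.

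Interferon transcripts themselves were at or near 0 counts. Of 20 interferon genes, 17 had 0 counts in all 6 libraries, among them Ifnb1 and Ifng, which allows up to 0.162 to 0.210 CPM depending on the library. Ifna7 had 1 count in LOXP 1, and Ifnab had 2 in LOXP 2 and 4 in LOXP 3. Ifnk had 7, 8 and 12 counts in LOXP and 12, 3 and 3 in KO. None could be tested, and a difference in interferon mRNA was not detectable at this depth.

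Other genes of the pathway, from lists that were also chosen with earlier results of these data known, were described in the same way. Of 70 such genes, 64 were tested, 20 were called lower (31.2%, against 11.6% of all tested genes) and 2 higher (3.12%, against 11.5%), and their median difference was -0.26 on the log2 scale. In the signalling list, 4 of 20 were lower (20%) and 1, the STAT inhibitor Pias1, was higher (5%), with a median of -0.06. Ube2l6, the conjugating enzyme for ISG15, gave a log2 fold change of -0.74 (SE 0.14, edgeR adjusted p = 0.00658), and the kinase Jak2 -0.34 (SE 0.07, adjusted p = 0.0109). In the list of 50 further interferon-stimulated genes, 44 were tested, 16 were lower (36.4%) and 1, Slfn9, was higher, with a median of -0.37. Lgals9 gave -0.52 (SE 0.05, adjusted p = 0.000253), the RNA sensor Ifih1 (MDA5) -0.82 (SE 0.08, adjusted p = 0.000358) and Apol9a -1.19 (SE 0.12, adjusted p = 0.000376).

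Per length, the 48 genes covered a wide range, and the median difference was more negative in the bins of lower level. This did not hold gene by gene, since Isg15, with the most negative value, was second in level. Above an FPKM of 10 in LOXP, 8 of 15 genes were called lower and the median log2 difference was -0.41. Between 1 and 10, 13 of 21 tested were, with a median of -0.69, and below 1, 5 of 8 tested, with a median of -1.10. Over all levels 11.6% of all tested genes were called lower. They were not split by level, so whether the bins differ from other genes of the same level was not tested. After Bst2, the highest FPKM in LOXP was that of Isg15 (47.0 ± 7.60), followed by Lgals3bp (45.7 ± 10.5) and Ifngr1 (32.4 ± 1.42), and of these neighbours in the order Isg15 and Lgals3bp did not differ beyond their spread. In the libraries labelled KO, Isg15 was at an FPKM of 14.8 ± 0.88, below Lgals3bp (34.2 ± 6.96) and Ifngr1 (28.8 ± 1.53). Position also linked the genes, since 20 of the 48 lay within 200000 bases of another of them, in 12 pairs.

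The summed levels of the hepatocyte, cholangiocyte, macrophage and plasmacytoid dendritic cell lists were lower in every library labelled KO than in any LOXP library. Such a sum mostly follows the most abundant genes of its list. The same held for the neutrophil list, at very few counts, while the ranges of the endothelial and stellate lists overlapped. Hepatocyte markers were highest by far, with a summed FPKM from 14730 to 15910 in LOXP and from 11010 to 11220 in KO. Of 18 tested, 15 were called lower (83.3%, against 11.6% of all tested genes), a larger share than the 59.1% of the interferon-stimulated genes. Of 19 macrophage markers tested, 3 were called lower (15.8%, against 11.6% of all tested genes), namely Itgam at -2.01, Cd68 at -0.87 and Mpeg1 at -0.69. Itgam (edgeR adjusted p = 0.0193) was called in 6 of the 13 alternatives. Positive values were seen for 8 markers, with Cd5l at 0.94 (edgeR adjusted p = 0.0853). The median of the 19 markers was -0.12, and the summed FPKM ran from 111.1 to 122.2 in LOXP and from 93.5 to 102.5 in KO. Cd68 alone went from a mean FPKM of 37.55 in LOXP to 21.06 in KO, so the lower sum does not describe the list as a whole. The endothelial list had 1 of 16 lower (37.1 to 41.0 against 35.4 to 38.6) and the stellate list 0 of 12 (19.7 to 22.2 against 20.6 to 22.4). Of the 7 genes in the cholangiocyte list 4 were tested. Of these, 3 were lower (75%, against 11.6% of all tested genes) and 1 was higher (25%, against 11.5%). The summed FPKM ran from 119.2 to 140.2 in LOXP and from 61.8 to 72.8 in KO. A single gene reached an FPKM of 117.0 in 1 library, so most of that sum came from 1 gene. Of the 7 genes listed for plasmacytoid dendritic cells, Siglech, Ccr9, Klk1 and Pacsin1 had 0 counts, Cox6a2 had 5 counts in LOXP and 21 in KO, and Lair1 had 13 and 14. Ly6d, the only one tested, had 382 and 280 counts and was lower (log2 fold change -0.63, SE 0.19, edgeR adjusted p = 0.0405), and the summed FPKM of the list ran from 9.33 to 13.2 in LOXP and from 6.67 to 9.07 in KO. Counts were 0 for 14 of 15 lymphocyte markers, and the 11 neutrophil markers held 54 counts in all, 41 in LOXP and 13 in KO. The part of these markers in the lower interferon-stimulated genes was not tested.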

How the data were processed

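RNA-seq was done on TRIzol-extracted RNA of 6 hepatocyte cultures, as paired-end reads of 150 bases. The authors deposited 1 table with a whole-number read count and an FPKM value (scaled for gene length and library size) per gene and library, and all 12 value columns were used. Their processing notes name fastp, HISAT2, StringTie, edgeR and GRCm39. The counting tool, strand setting and versions are not given in the sources used here. Groups and replicate numbers came from the sample titles.

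Counts were compared in R 4.3.3 with edgeR 4.0.16 (filterByExpr by group with a minimum count of 10, TMM, two-sided quasi-likelihood test, Benjamini-Hochberg over 14151 genes). Levels are CPM on TMM-scaled library sizes (factors from 0.973 to 1.02). The steps were tested on simulated data. Alternatives were DESeq2 1.42.0, upper-quartile factors, both count filters (10 in every library, or 1 in total), the replicate block, limma 3.58.1 on log2(FPKM + 1) and log2(FPKM + 0.1), and each library left out.

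The genes, lists and roles were chosen with earlier results of these data known. Values in every library are given for the STAT, IRF, receptor, ISG15 and IFIT genes, for the 2 genes of smallest adjusted p in each other role and for genes that could not be tested. Outside the 48, Sting1, the interferons and the 3 genes of smallest adjusted p in each further list were named. One result that this rule selects is not reported here. Pias1, Slfn9 and the single markers were chosen after their values were seen. Intervals and limits at 0 counts cover counting error only.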

Additional observations from a re-analysis of the deposited data

How the results depend on the processing

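The number of genes called lower was 26, and from 20 (without KO 2) to 30 (without LOXP 3) when 1 library was left out. None was called higher in any alternative. Over all tested genes, 1641 of 14151 were called lower, 1052 of 14450 without KO 2 and 1208 of 14424 without LOXP 3. Of the 26, 18 were called in each of the 13 alternatives. Among the other 18 tested, 8 were called in at least 1 and 10 in none. With limma on log2(FPKM + 1), which compresses low values, 2 genes instead of 7 met the 3 criteria and the median log2 fold change was -0.36. Leaving out 1 library moved the median from -0.65 (without LOXP 3) to -0.50 (without LOXP 1). Of 571 values of single genes under the alternatives, 521 kept direction and side of the threshold, 34 lost the call, 14 gained it and 2 turned sign. Those 2 were Ifit2, from -0.025 (without LOXP 2) to 0.28, and Ifit3b, from -0.54 to 0.071 (without LOXP 1), when 1 library was left out. The causes were not tested. With the replicate block 28 genes were called lower, including all 26, against 1605 of 14151 tested genes. Same-numbered libraries deviated together only weakly (correlations of 0.12, 0.083 and 0.013). The best KO partner was the same-numbered library for LOXP 1 and LOXP 2 but not for LOXP 3. The numbers are taken as names, and whether the libraries were paired is not settled by these values. Genes with few counts, such as Ifit3b, Oas2, Mx1 and the interferons, were limited by depth.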
